A study of Mus musculus with 9 samples.

Results

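The Ms4a genes encode a family of small proteins that cross the cell membrane several times, most of them made by cells of the immune system. The 7 genes described here are Ms4a2, Ms4a3, Ms4a4c, Ms4a6b, Ms4a6c, Ms4a6d and Ms4a7. They were read by 14 probe sets of 45037 tested, namely every probe set that the array's annotation gives to a single one of these genes, and they are 7 of 18193 genes with such a probe set. The family was chosen by the large fall of Ms4a6b between homozygous and wild-type arrays (-3.55 on the log2 scale), so values and counts of that comparison describe the choice, are given without p-values and support nothing.

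RNA came from the circulating blood of E12.5 mouse embryos, whose strain background was mixed C57BL6/129SvEv. Embryos were CbfbΔC95/ΔC95 (homozygous), Cbfb+/ΔC95 (heterozygous) or Cbfb+/+ (wild type), and the labels name no other allele and no treatment. Cbfb encodes the core binding factor subunit that pairs with the DNA-binding RUNX proteins to control genes of blood development. The title of the study names CBFβ-SMMHC, a leukaemia fusion of this subunit with smooth muscle myosin heavy chain, and its C-terminus. The labels name the ΔC95 allele without describing it. Each genotype has 3 of the 9 arrays, with blood pooled from 8 to 10 embryos of that genotype. The labels do not say whether these 3 came from separate pools, so p-values measure the spread between arrays, which may be technical. The number of arrays limits the precision.

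As background, Ms4a2 is the beta chain of the high-affinity IgE receptor of mast cells and basophils, where it amplifies the signal of the receptor. Ms4a3 marks granulocyte and monocyte precursors. Ms4a6b, Ms4a6c, Ms4a6d and Ms4a7 are expressed in monocytes and macrophages, and the B cell antigen CD20 is encoded by another member, Ms4a1. In the mouse the family lies in a cluster on chromosome 19.

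In the order of the RefSeq annotation, 10 genes run from Ms4a7 through Ms4a4a, Ms4a4c, Ms4a4b, Ms4a6c, Ms4a6b, Ms4a4d, Ms4a6d and Ms4a2 to Ms4a3, and 9 of them were measured here. RefSeq promoter windows of assembly GRCm38.p6, running from 250 bases before to 50 bases after an annotated transcript start, were found for 6 of the 7 genes, with 2 windows for Ms4a7 and none for Ms4a6d. The windows of the neighbours Ms4a6b and Ms4a6c are shown because these genes are close relatives whose transcripts differed in how far they were lowered. The Ms4a6b window is chr19:11518309-11518608 and the Ms4a6c window chr19:11469118-11469417, both on the plus strand and both written 5′ to 3′. Capitals mark the longest run of bases that they share without a mismatch, 48 bases long.
Ms4a6b: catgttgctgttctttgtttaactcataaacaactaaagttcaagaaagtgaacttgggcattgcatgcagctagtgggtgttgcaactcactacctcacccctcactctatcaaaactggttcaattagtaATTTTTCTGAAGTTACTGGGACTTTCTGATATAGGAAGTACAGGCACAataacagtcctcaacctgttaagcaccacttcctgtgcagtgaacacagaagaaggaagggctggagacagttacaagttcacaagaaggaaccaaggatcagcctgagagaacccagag
Ms4a6c: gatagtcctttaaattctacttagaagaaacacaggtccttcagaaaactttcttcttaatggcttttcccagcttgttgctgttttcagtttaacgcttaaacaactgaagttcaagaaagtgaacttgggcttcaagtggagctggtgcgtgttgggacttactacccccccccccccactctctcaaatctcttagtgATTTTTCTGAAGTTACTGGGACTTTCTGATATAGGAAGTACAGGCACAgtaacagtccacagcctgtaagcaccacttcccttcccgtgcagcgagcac
Counted from the annotated start, the shared run begins at position -118 in Ms4a6b and at -49 in Ms4a6c, an offset of 69 bases. In a global alignment 192 of 225 aligned base pairs (85.3%) were identical. The other 20 pairs of windows in the set had 56.3% to 66.8% identity and longest runs of 6 to 12 bases.

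Motifs were searched in all 7 windows on both strands. The RUNX motifs TGTGGT and TGCGGT, of which at least 1 occurs in 22.4% of 32851 promoter windows of the same length, had no match in the windows of Ms4a6b, Ms4a6c, Ms4a7 or Ms4a3. TGTGGT matched in the Ms4a4c window and TGCGGT in the Ms4a2 window. The motif GAGGAA of ETS family factors, present in 28.3% of all windows, matched for Ms4a3, Ms4a4c and 1 window of Ms4a7. The C/EBP motif TTGNNCAA, present in 6.4%, matched for Ms4a3 and for the same window of Ms4a7. A further ETS motif, AGGAAGT, was searched after the shared run had been seen to hold it, and it lies in 9.35% of all windows. It matched at 2 places in the Ms4a6b window and at 1 in the Ms4a6c window, and in no other window of the set. GAGGAA and AGGAAGT share letters and can overlap. A match is a string of letters and not a measured binding site.

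Erythroid transcripts lay near the top of the range of values, with the embryonic globin gene Hba-x at 14.35, 14.31 and 14.30 on the log2 scale in homozygous, heterozygous and wild-type blood. The targeted gene Cbfb was at 5.10 ± 0.16 in homozygous, 5.77 ± 0.04 in heterozygous and 6.01 ± 0.03 in wild-type arrays (SD, n = 3 each), by a probe set that was not mapped onto the mutant allele and therefore says nothing on the labels. Poly-A spike-ins, bacterial RNAs added before labelling, were at 11.96, 11.26 and 10.38 in the same order of genotypes, while the median difference over all probe sets was 0.04 for homozygous minus wild type and 0.01 for heterozygous minus wild type. All values below are therefore relative within an array. With these spike-ins set equal, every homozygous minus wild-type difference would be lower by 1.58, every heterozygous minus wild-type difference by 0.88 and every homozygous minus heterozygous difference by 0.70. A refit with these spike-in means set equal is described at the end. Why the spike-ins differed was not tested.

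Ms4a6b carried the largest difference of the family. Its main probe set, 1418826_at, read 3.55, 3.64 and 3.75 in homozygous arrays, against 6.84, 6.77 and 6.66 in heterozygous and 7.18, 7.19 and 7.23 in wild-type arrays, in log2 units. The groups did not overlap, and the homozygous arrays stood far below both others. Homozygous minus wild type was -3.55 ± 0.07 (SE), an 11.7-fold lower value, which ranked 3 from the lowest of 45037 probe sets. Homozygous minus heterozygous was -3.11 ± 0.07 (SE), or 8.64-fold lower, at rank 6. These are descriptions of a gene chosen for its homozygous value. The homozygous mean of 3.65 is below 3.79, the mean under which the dimmest 40% of probe sets lay, and without detection calls it is unknown whether it was above background, so both folds may be limited by background. A second probe set, 1439956_at, was dim, at 2.13 in homozygous, 2.38 in heterozygous and 2.52 in wild-type blood, and differed by -0.38 from wild type in the homozygous group.

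Heterozygous blood was much nearer to wild type. Ms4a6b was lower there by -0.44 ± 0.07 on the log2 scale (SE; 1.36-fold lower, limma adjusted p = 0.00167), with all 3 heterozygous arrays below all 3 wild-type arrays. The second probe set gave -0.13 and did not pass (limma adjusted p = 0.361). The heterozygous change in the main probe set was 12.4% of the measured homozygous change, a share that would be smaller if background limited the homozygous value. This comparison shares its wild-type arrays with the one that chose the gene.

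**Figure D1:**
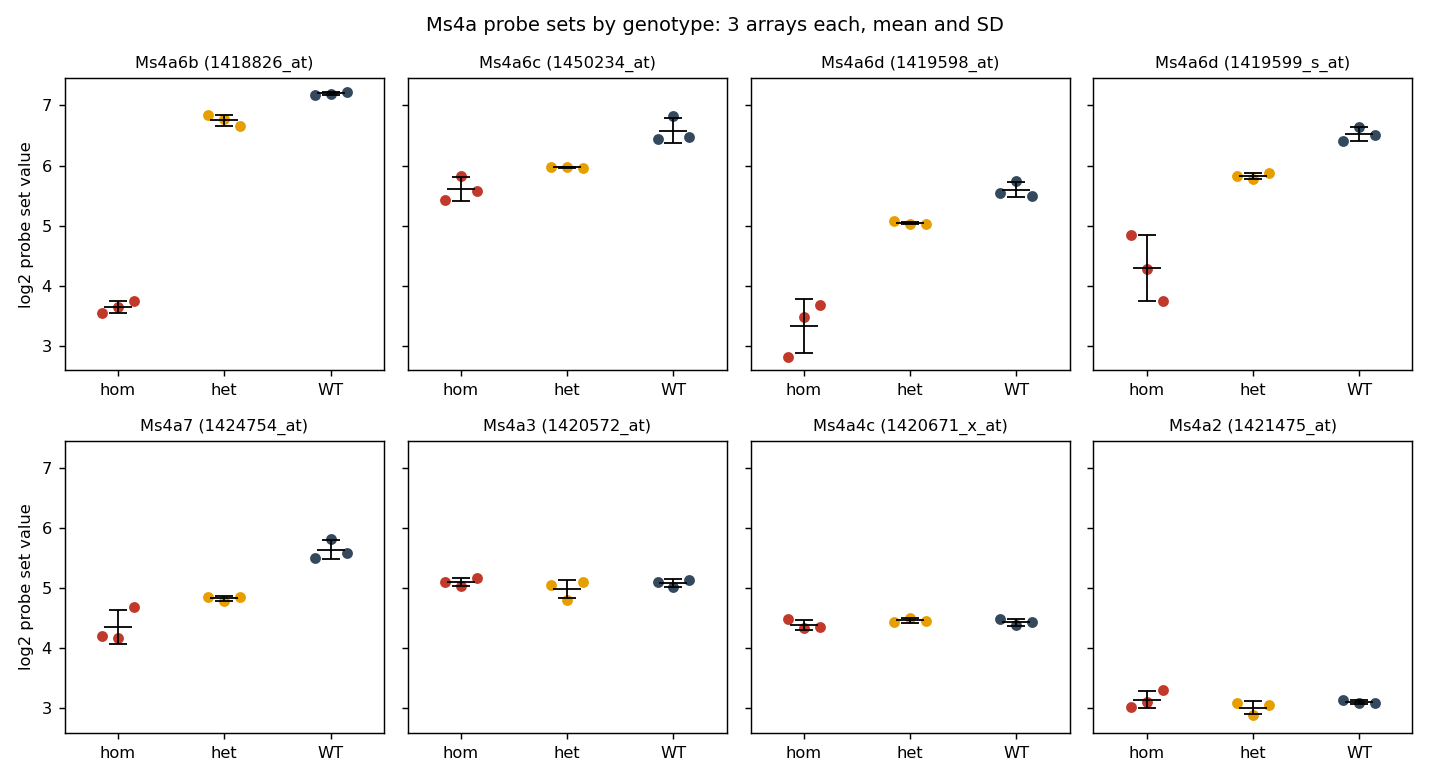
Log2 values of 8 Ms4a probe sets (y axis) in homozygous (hom), heterozygous (het) and wild-type (WT) arrays; points are arrays, and the black bars give the mean and SD of 3. The Ms4a6b probe set is between 3.55 and 3.75 in homozygous and above 6.6 in all other arrays, whereas the probe sets of Ms4a3, Ms4a4c and Ms4a2 lie at similar values in every genotype.

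Ms4a6d, a membrane protein of macrophages in the mouse, was read by 3 probe sets, of which 2 differed between genotypes. Probe set 1419598_at read 2.81, 3.48 and 3.67 in homozygous arrays, against 5.07, 5.03 and 5.03 in heterozygous and 5.55, 5.74 and 5.50 in wild-type arrays. Probe set 1419599_s_at read 4.85, 4.28 and 3.75 in homozygous arrays, against 5.83, 5.78 and 5.88 in heterozygous and 6.41, 6.64 and 6.51 in wild-type arrays. In both, the homozygous arrays were lowest and no groups overlapped. The homozygous arrays were also the most scattered, with an SD of 0.45 and 0.55, and the array that was lowest by the first probe set was highest by the second. The level of Ms4a6d in a single homozygous array is thus uncertain, although by both of these probe sets the homozygous group was the lowest.

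Homozygous minus heterozygous was -1.72 ± 0.17 for 1419598_at (SE, 3.3-fold lower, limma adjusted p = 2.78e-05) and -1.53 ± 0.20 for 1419599_s_at (SE, 2.9-fold lower, limma adjusted p = 0.000247). This comparison shares its homozygous arrays with the one that chose the family. Heterozygous minus wild type was -0.55 and -0.69, and neither passed the test (limma adjusted p = 0.0691 and 0.0526), although every heterozygous array was below every wild-type array. Without homozygous replicate 1 both passed, at adjusted p = 0.00146 and 0.00532 by limma, and they also passed without homozygous replicate 3. The homozygous arrays enter only through the shared estimate of the spread. In a fit of the 2 compared groups alone, chosen as an alternative, limma gave adjusted p = 0.00244 and 0.00098. The third probe set, 1449539_at, lay between 1.70 and 2.02 on all arrays and did not pass in any comparison. The suffix s_at marks a probe set that may also read related transcripts.

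Ms4a7, found in macrophages, and Ms4a6c, found in monocytes, differed less in homozygous blood and relatively more in heterozygous blood. Ms4a7 by 1424754_at read 4.21, 4.17 and 4.68 in homozygous arrays, against 4.85, 4.79 and 4.85 in heterozygous and 5.51, 5.82 and 5.59 in wild-type arrays. The 3 genotypes formed separate steps, with wild type highest. Ms4a7 fell in heterozygous blood, with a difference of -0.81 ± 0.12 from wild type (SE, 1.75-fold lower, limma adjusted p = 0.00127), at rank 68 from the lowest of 45037. Homozygous blood was lower again than heterozygous blood, by -0.48 ± 0.12 (SE, limma adjusted p = 0.0225). That call was lost without homozygous replicate 1 or 2 or any heterozygous array, where limma gave adjusted p = 0.0566 to 0.0916. The other Ms4a7 probe set, 1445365_at, was dim and read 2.38 to 2.56 throughout.

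Ms4a6c by 1450234_at read 5.42, 5.82 and 5.57 in homozygous arrays, against 5.98, 5.97 and 5.96 in heterozygous and 6.45, 6.83 and 6.47 in wild-type arrays. Here too the groups did not overlap, and the gap between heterozygous and wild-type arrays was the wider one. Ms4a6c fell in heterozygous blood by -0.61 ± 0.11 (SE, 1.53-fold lower than wild type, limma adjusted p = 0.0045). The homozygous minus heterozygous difference of -0.37 did not pass (limma adjusted p = 0.0548), with a 95% interval from -0.61 to -0.12 before adjustment. Several alternatives put it past the threshold, for example the filter on dim probe sets with a limma adjusted p of 0.0397. The other Ms4a6c probe set, 1457725_at, gave 0.03 in heterozygous minus wild-type and 0.08 in homozygous minus heterozygous blood, so the probe sets of Ms4a6c disagree. Homozygous minus wild type was -1.29 for Ms4a7 and -0.98 for Ms4a6c, and the heterozygous change was 62.9% and 62.6% of it.

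The heterozygous deviation from the midpoint sets the heterozygous mean against the mean of the homozygous and wild-type means. With equal numbers of arrays this contrast is orthogonal to homozygous minus wild type, so its estimate is uncorrelated with the one that chose the family, although both use the same estimate of the spread. Ms4a6b in heterozygous blood lay 1.33 ± 0.06 above the midpoint on the log2 scale (SE, limma adjusted p = 1.77e-07), at a 95% interval of 1.20 to 1.46. The size of this deviation depends on the homozygous value, which chose the gene and may be limited by background. Ms4a6d by 1419598_at lay 0.59 ± 0.15 above it (SE, limma adjusted p = 0.0479), a call lost without homozygous replicate 2, without any single heterozygous or any single wild-type array, where limma gave adjusted p = 0.0528 to 0.161. The homozygous value of 1419598_at may also be limited by background. By 1419599_s_at the deviation of Ms4a6d was 0.42 and did not pass (limma adjusted p = 0.247). Ms4a7 deviated by -0.17 with an interval of -0.39 to 0.06, and Ms4a6c by -0.12 with an interval of -0.33 to 0.09, and neither passed (limma adjusted p = 0.491 and 0.605). These intervals are not adjusted, and the difference in deviation between genes was not tested.

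The scale matters for this contrast. Taken back from the log2 means, Ms4a6b was at 108 in heterozygous blood, against an unlogged midpoint of 79.8, so that heterozygous blood was still above it. Ms4a6d by 1419599_s_at was at 56.8 in heterozygous blood against an unlogged midpoint of 55.7. Ms4a7 was at 28.4 against 35.2, and Ms4a6c at 62.7 against 72.3. The unlogged midpoint was chosen after the values had been seen and was not tested.

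**Figure D2:**
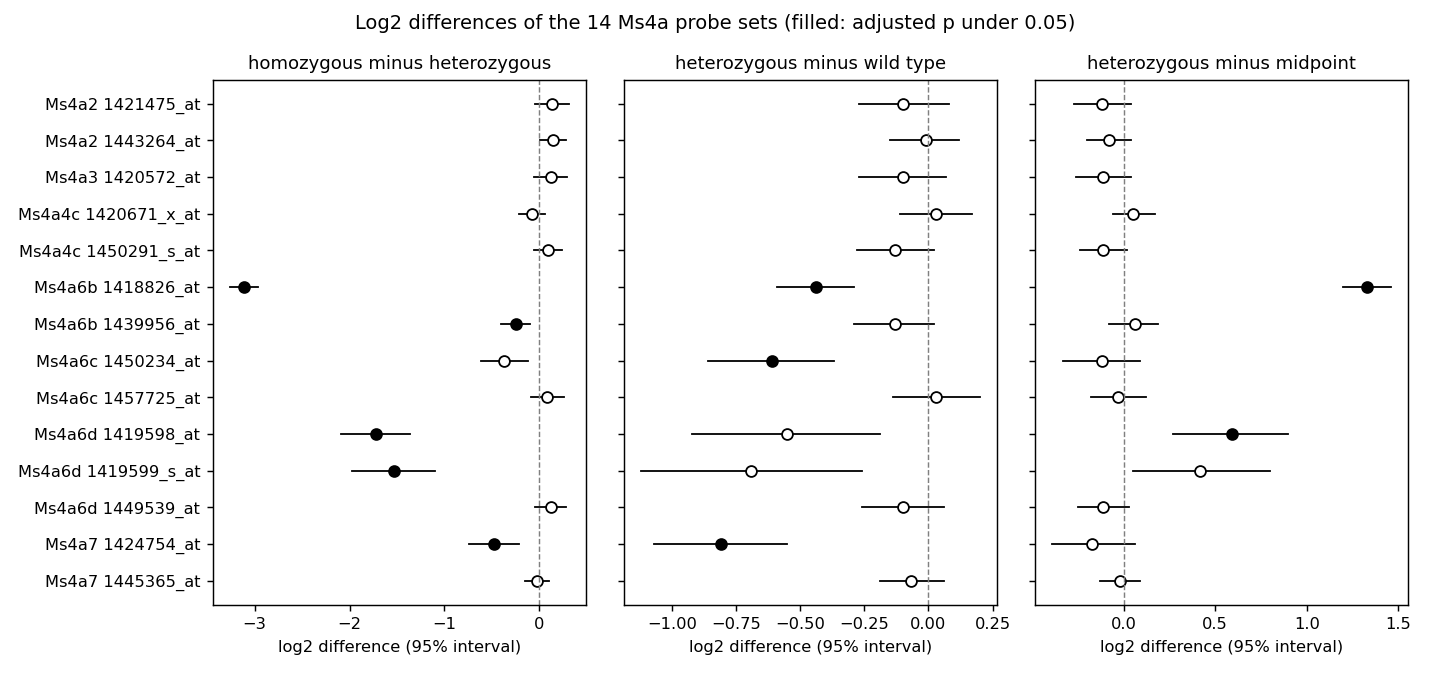
Log2 differences (x axes, with unadjusted 95% intervals) of the 14 Ms4a probe sets (rows) in homozygous minus heterozygous, heterozygous minus wild type and heterozygous minus midpoint; filled points have a limma adjusted p under 0.05. Ms4a6b 1418826_at stands at -3.11, -0.44 and 1.33, while Ms4a7 1424754_at and Ms4a6c 1450234_at have their larger step between heterozygous and wild type.

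Ms4a2, Ms4a3 and Ms4a4c showed no called difference. Ms4a3 by its only probe set, 1420572_at, read 5.10, 5.04 and 5.17 in homozygous, 5.05, 4.81 and 5.10 in heterozygous and 5.10, 5.02 and 5.14 in wild-type arrays. The genotypes overlapped, and heterozygous minus wild type was -0.10 (limma adjusted p = 0.592). Ms4a2 by 1421475_at read 3.02 to 3.30 in homozygous, 2.89 to 3.09 in heterozygous and 3.09 to 3.14 in wild-type arrays. Ms4a4c by 1420671_x_at read 4.33 to 4.49 in homozygous, 4.43 to 4.50 in heterozygous and 4.38 to 4.49 in wild-type arrays, and its suffix also marks a set that may read other genes. Across the 8 probe sets of the family without a call in any comparison, heterozygous minus wild-type differences ran from -0.13 to 0.03 and homozygous minus heterozygous differences from -0.08 to 0.14. Detection calls were not used here, so whether these probe sets were above background is unknown.

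Counted over the family, 3 of 14 probe sets were lower in heterozygous than in wild-type blood, where 5.15% of all probe sets were, and none was higher, where 3.41% of all were. In homozygous against heterozygous blood 5 of 14 were lower, where 7.95% of all probe sets were, and none was higher, where 4.17% of all were. Of these 5, the 2 of Ms4a6b come from the gene chosen for its low homozygous value. The call of its dim probe set 1439956_at was lost with array weights, with the replicate block and without any single homozygous array, any single heterozygous array or wild-type replicate 1. In homozygous against wild-type blood 6 of 14 were lower, against 11.7% of all, and none was higher, against 8.34% of all. That is a count that the choice of the family bears on and from which nothing is read. Above the midpoint in heterozygous blood were 2 of 14, where 2.65% of all probe sets were, and none was below, where 1.07% were. All arrays stood in the order homozygous, heterozygous, wild type without overlap in 5 of 14 probe sets, against 4.95% of all. That order uses the homozygous and wild-type arrays that chose the family and includes Ms4a6b itself, so nothing is read from it. The median of the 14 was -0.12 for heterozygous minus wild type and -0.05 for homozygous minus heterozygous, beside 0.01 and 0.03 over all probe sets. By the brightest probe set of each gene, 3 of 7 genes were lower in heterozygous blood and 3 of 7 in homozygous against heterozygous blood, where 7.04% and 10.4% of 18193 genes were. The second count again includes Ms4a6b, the gene chosen for its low homozygous value. A filter that removed the dimmest 40% of probe sets kept 8 of the 14.

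Of 16 probe sets of 12 other genes, namely Ms4a1, Ms4a4b, Ms4a4d, Ms4a8a, Ms4a10, Ms4a13, Ms4a15, Ms4a18, Ms4a19, Ms4a20 and the related Tmem176a and Tmem176b, none passed in heterozygous against wild-type blood. Their differences there lay between -0.17 and 0.15. Of all probe sets 5.15% were lower and 3.41% higher in that comparison. In homozygous against heterozygous blood 1 of the 16 passed, Tmem176a by 1423909_at at -0.37 (limma adjusted p = 0.0338). The remaining Tmem176a probe sets gave -0.11 and -0.12. Here 7.95% of all probe sets were lower and 4.17% higher, so both counts are near the share of all probe sets. The B cell gene Ms4a1 gave 0.11 and 0.10 there by its 2 probe sets. Along the cluster, Ms4a4d lies between Ms4a6b and Ms4a6d and gave 0.00 for homozygous minus heterozygous blood, and Ms4a4b, next to Ms4a6c, gave 0.18 by its brighter probe set without passing (limma adjusted p = 0.177).

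**Figure D3:**
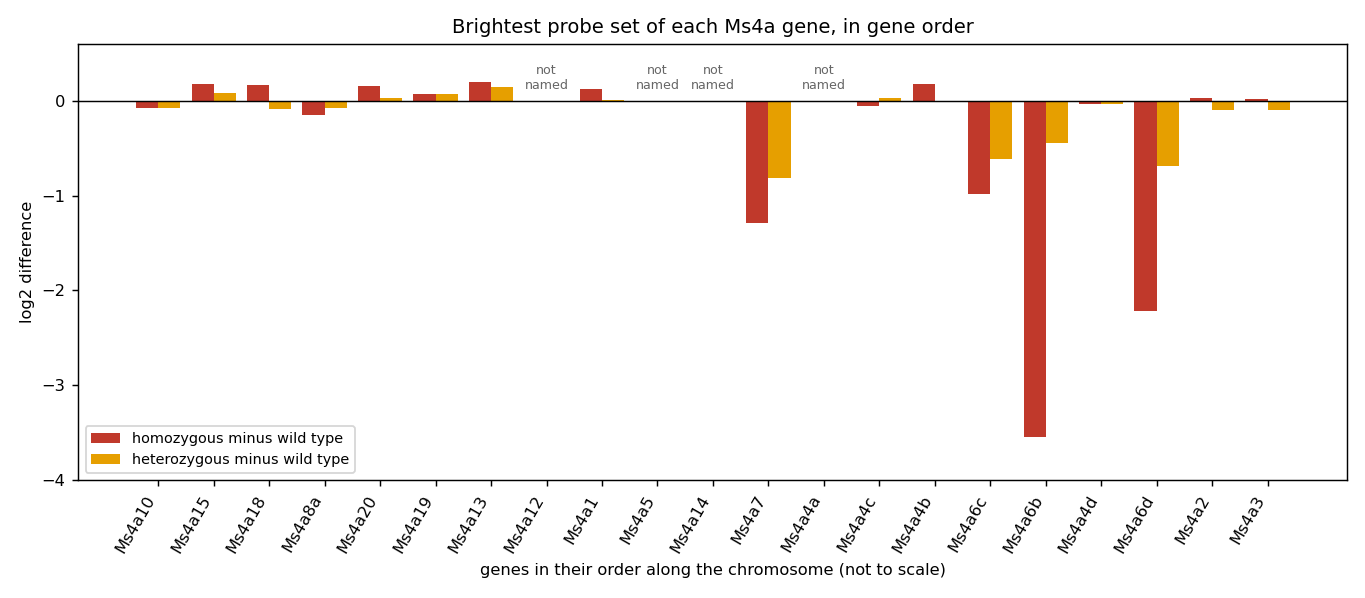
Log2 differences from wild type (y axis) in homozygous and heterozygous blood for the brightest probe set of each Ms4a gene, with genes in RefSeq order along the chromosome and not to scale; genes marked "not named" have no probe set of their own here. Ms4a7, Ms4a6c, Ms4a6b and Ms4a6d have the longest bars, and Ms4a4c, Ms4a4b and Ms4a4d between them are near 0.

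Genes of monocytes and macrophages changed in the same arrays. Of 21 measured genes of that list, 14 were lower in homozygous than in heterozygous blood and none higher, where 10.4% of all genes were lower and 5.38% higher, with a median difference of -1.37 beside 0.03 for all genes. Of the same 21, 7 were lower in heterozygous than in wild-type blood and none higher, where 7.04% of all genes were lower and 4.79% higher, with a median of -0.13 beside 0.01. Above the midpoint in heterozygous blood were 11 of 21, where 3.64% of all genes were. The summed unlogged level of the list was 558 to 567 in homozygous, 2002 to 2046 in heterozygous and 2681 to 2735 in wild-type arrays. In pooled blood, fewer cells of a type and less RNA per cell cannot be told apart, and the part of these cells in the Ms4a values was not tested.

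The listed macrophage genes differed among themselves in how much of the change heterozygous blood showed. Mrc1, the mannose receptor, did not pass in heterozygous against wild-type blood at -0.13 (limma adjusted p = 0.223), while homozygous minus heterozygous blood gave -3.36. The complement gene C1qa gave 0.05 in heterozygous minus wild-type blood and did not pass (limma adjusted p = 0.916). Cd68 gave 0.43 in that comparison and did not pass (limma adjusted p = 0.113), while homozygous minus heterozygous blood gave -1.66. The lysozyme genes Lyz1 and Lyz2 and the protease gene Ctss fell in heterozygous blood by -1.36, -1.15 and -1.07, which was 40.3%, 45.6% and 37.9% of their homozygous change. Lyz1 and Ctss had homozygous means of 3.98 and 4.15, which may be limited by background, and their shares would then be smaller. For Csf1r, the receptor of macrophage colony-stimulating factor, that share was 16.1%, and for the Fc receptor gene Fcgr3 10.2%. Itgam, Cd163, Timd4, Cx3cr1, Ccr2 and Trem2 of the list did not pass in any comparison.

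**Figure D4:**
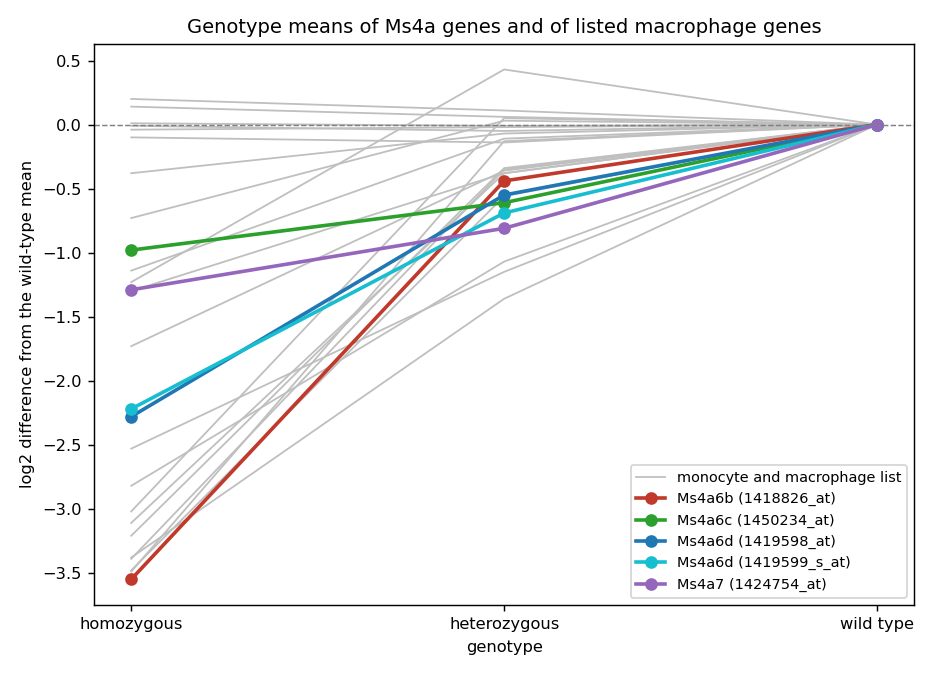
Genotype means as log2 differences from wild type (y axis) for 5 Ms4a probe sets in colour and for 21 listed monocyte and macrophage genes in grey. Ms4a6b ends at -3.55 in homozygous and -0.44 in heterozygous blood, and Ms4a7 at -1.29 and -0.81.

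The 5 genes whose array profiles were nearest to Ms4a6b were Csf1r, Fcgr3, Mrc1, F13a1 and Tyrobp. Nearness was the root mean square difference over the 9 arrays, each value taken minus the wild-type mean of its own probe set, and it ran from 0.12 for Csf1r to 0.23 for Tyrobp on the log2 scale. Within 0.2 of Ms4a6b lay 3 of 16311 genes compared, with predicted genes and clone names passed over. The distance uses the homozygous arrays by which Ms4a6b was chosen, and few genes could lie near so large a fall. The neighbours of Ms4a6b are thus a description and support nothing. For Ms4a6d by its brighter probe set the nearest were Mpo at 0.18 and Ehd4 at 0.22. Ms4a7 had Strn3 at 0.13, Osbpl8 at 0.15, Zfp281, Clec4a3 and Mpeg1 nearest, with 22 genes within 0.2. Ms4a6c had 125 genes within 0.2, the nearest being Oasl2 at 0.09. The flat profile of Ms4a3 was shared by 10547 genes within 0.2, among them the 5 nearest, Sec16b, Zfp950, Gimap7, Endov and Mall, at 0.03 to 0.05. The neighbours of Ms4a6d, Ms4a7 and Ms4a6c were added after the values had been seen.

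Partners and cell types of the uncalled members were set beside them. Of 6 measured genes of the IgE receptor and its signalling, Fcer1g, the gamma chain shared with other Fc receptors, and the kinase gene Btk were lower in homozygous than in heterozygous blood, by differences of -1.61 and -0.47, where 10.4% of all genes were lower. Fcer1a, the alpha chain that binds IgE, gave 0.19 and did not pass (limma adjusted p = 0.283), like both probe sets of Ms4a2. Of 11 mast cell and basophil genes, the protease gene Cpa3 was the single one lower in heterozygous than in wild-type blood, at -0.65 (limma adjusted p = 0.0212), and in homozygous than in heterozygous blood, at -0.57. Of all genes 7.04% and 10.4% were lower in these comparisons, so 1 of 11 is near the share of all genes. The summed unlogged level of that list was 267 to 290 in homozygous, 287 to 298 in heterozygous and 304 to 319 in wild-type arrays. Cpa3 alone was at 15.2, 22.5 and 35.4 in the same order. The list median was -0.05 for heterozygous minus wild type, beside 0.01 for all genes. For homozygous minus heterozygous it was -0.03, beside 0.03.

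Granulocyte precursor genes, the cell type of Ms4a3, were lower in heterozygous than in wild-type blood in 4 of 11, where 7.04% of all genes were, with none higher, where 4.79% of all genes were. These were S100a8 at -1.32, S100a9 at -0.94, the myeloperoxidase gene Mpo at -0.77 and the protease gene Prtn3 at -0.52. In homozygous against heterozygous blood Mpo alone of the 11 was lower, at -1.43, where 10.4% of all genes were lower. S100a8 and S100a9 gave 0.23 and 0.47 there and did not pass (limma adjusted p = 0.224 and 0.0717). In heterozygous blood these 2 genes lay below the midpoint, at -0.77 and -0.70 (limma adjusted p = 0.000705 and 0.0113). The list median was -0.20 for heterozygous minus wild type, beside 0.01 for all genes. For homozygous minus heterozygous it was 0.14, beside 0.03 for all genes. The summed unlogged level of the list was 321 to 332 in homozygous, 373 to 383 in heterozygous and 533 to 576 in wild-type arrays. Mpo alone was at 49.1, 132 and 226 in the same order, so this sum leans on a single gene. Ms4a3 itself did not pass. None of 5 B cell genes or 4 T cell genes passed in any comparison. Of 8 erythroid genes, Epor was lower in heterozygous than in wild-type blood at -0.27 (limma adjusted p = 0.0122), where 7.04% of all genes were lower.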

How the data were processed

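Total RNA of pooled embryonic blood was profiled on 9 Affymetrix mouse arrays, using One Cycle Target Labeling per the labels' protocols. RMA, Partek 6.5 and Expression Console 1.0 of Affymetrix are listed, with no order or role, per the submitters' processing notes. The authors' deposited values were taken as log2, because they ranged from 1.49 to 14.56 and RMA gives that scale, which the labels leave unstated. RMA equalizes the distributions of arrays, which removes any uniform difference in RNA content. No detection calls were used.

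The 64 control probe sets were left out, and 45037 were tested. GEO's platform annotation gave a single gene to 34945 of them. Titles gave the genotypes. Using limma 3.58.1 under R 4.3.3, lmFit, contrasts.fit and eBayes were run with genotype as the factor over all 9 arrays, 2-sided, with Benjamini-Hochberg adjustment over all 45037 and a threshold of 0.05. The procedure was tested on simulated data. The members, gene lists, motifs and tests were chosen with earlier results of these data known. Named genes are all members, the other measured genes of the family, up to 4 called genes of each list with the largest change, and the 5 genes nearest to Ms4a6b and to Ms4a3. Uncalled genes of the lists and the neighbours of other members were added after their values were seen. Lists use the probe set with the highest mean per gene. Promoter windows are from RefSeq, GRCm38.p6, aligned with Biopython (match 1, mismatch -1, gap opening -3, extension -0.5).

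Alternatives were cyclic loess, equal array medians, equal poly-A spike-in means, a filter on the dimmest 40%, an intensity trend in the variance prior, array weights, fits of only the groups compared, a replicate block, a threshold of 0.01, a single probe set per gene, no x_at or s_at probe sets, leaving out each array and an unlogged midpoint.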

Additional observations from a re-analysis of the deposited data

How the results depend on the processing

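Setting the poly-A spike-in means equal moved the median over all probe sets to -1.54 for homozygous minus wild type, -0.87 for heterozygous minus wild type, -0.67 for homozygous minus heterozygous and -0.10 for heterozygous minus midpoint. It called 14 Ms4a probe sets in each of the first 3 comparisons and 1 in the last, and 45035, 44962, 44941 and 4898 probe sets in all, of which 0%, 0.0689%, 0.0356% and 16.2% were higher, beside 41.7%, 39.8%, 34.4% and 71.3% without it. All Ms4a values in the first 3 comparisons were then called falls, and those that were above 0 without this setting changed sign. For homozygous minus wild type the values that changed sign were Ms4a2 (-1.55 and -1.45), Ms4a3 (-1.56), Ms4a6c 1457725_at (-1.47) and Ms4a6d 1449539_at (-1.56). For heterozygous minus wild type those were Ms4a4c 1420671_x_at and Ms4a6c 1457725_at (-0.85 each). For homozygous minus heterozygous those were Ms4a2 (-0.57 and -0.56), Ms4a3 (-0.58), Ms4a4c 1450291_s_at (-0.61), Ms4a6c 1457725_at (-0.61) and Ms4a6d 1449539_at (-0.58).

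Under the other alternatives no called value changed sign. The falls of Ms4a6b, Ms4a6c and Ms4a7 in heterozygous blood and the deviation of Ms4a6b from the midpoint passed 0.05 in every alternative that tested them. The limma adjusted p reached up to 0.0105, 0.0206, 0.00801 and 6.1e-06. The unlogged midpoint was not tested. The count of Ms4a probe sets lower in heterozygous blood went to 5 with an intensity trend, with array weights and with only the groups compared, from the 2 of Ms4a6d. At a threshold of 0.01 the Ms4a counts were 3 for homozygous minus heterozygous and 1 for the midpoint, and all calls were 2153 for heterozygous minus wild type, 3057 for homozygous minus heterozygous and 785 for the midpoint. With a single probe set per gene, fewer features were tested and 5128, 2482 and 3302 were called in homozygous minus wild type, heterozygous minus wild type and homozygous minus heterozygous, with 1 Ms4a call at the midpoint. The intensity trend called 2831 probe sets at the midpoint, beside 1675.

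Leaving out each array gave 3 to 5 Ms4a calls for heterozygous minus wild type, 3 to 6 for homozygous minus heterozygous and 1 to 3 for the midpoint, where all calls ran from 879 to 1865. The first count was 5 without homozygous replicate 1 or 3, and the second was 3 without homozygous replicate 1 or any heterozygous array. The midpoint count was 3 without homozygous replicate 1 and 1 without homozygous replicate 2 or any heterozygous or wild-type array. The midpoint was not fitted with only the groups compared, since it needs all 3 genotypes. The replicate block gave 3571, 5199 and 1471 calls for heterozygous minus wild type, homozygous minus heterozygous and the midpoint, beside 3855, 5459 and 1675, and moved no Ms4a count. In homozygous minus heterozygous blood it lost the call of Ms4a6b 1439956_at and gained that of Ms4a6c 1450234_at (limma adjusted p = 0.0198 for Ms4a6c). Between genotypes, deviations of same-numbered arrays correlated at -0.02 to 0.07 and those of differently numbered arrays at -0.06 to 0.03. Among arrays of the other genotypes, 7 of 9 arrays were closest to an array of their own number. A midpoint of unlogged means moved the deviation of Ms4a6b to 0.44 and of Ms4a6d 1419598_at to 0.18. With detection calls not used, differences of dim probe sets may not be readable.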
